A study of Musa acuminata AAA Group with 4 samples.

Results

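Of 31873 genes detected in Cavendish banana, 184 had a best protein match described as chloroplastic and had been picked by the authors' filter for a change under low nitrogen in leaf or in root. They are the chloroplast-targeted enzymes and proteins outside the photosystems, antennae, plastid ribosome, starch synthases, glutamine synthetase and the other families that 13 excluded terms left out. The choice used the low-nitrogen change itself, so the changes given here describe the chosen genes and test nothing. The label rests on the description of a matched protein, and where the banana protein resides was not measured.

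RNA was sequenced from Musa acuminata AAA Group, cv. Cavendish, a triploid clone, after 60 days in clean sand. The 4 libraries were low-N leaf, normal-N leaf, low-N root and normal-N root, where low N stands for a low-nitrogen solution and normal N for Hoagland complete solution. The leaf samples were the aboveground part, with pseudostems as well as leaves. Each group had 1 library and the number of plants behind a library is not given in the sources used here, so no difference has a replicate check.

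Most chloroplast proteins are encoded in the nucleus, made in the cytosol and imported with a transit peptide that is cut off inside. In leaf cells the organelle fixes carbon on ATP and NADPH from the thylakoids. In root cells the same organelle family is present as colourless plastids, which reduce nitrite and sulfite and make amino acids and fatty acids on NADPH from sugar oxidation. Poly(A)-selected libraries such as these report mainly the nuclear genes.

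Levels are FPKM, fragments scaled by gene length and library total as the authors deposited them, and a gene with no fragments was read as 0. A change is the low-N level divided by the normal-N level, each as FPKM + 1, on the log2 scale. A gene is called higher or lower by size when its change reached 1 in either direction and 1 of the libraries compared held 2 FPKM or more. Folds are ratios of expected counts with an exact 95% Clopper-Pearson interval, which covers counting error only. Libraries held 4144048 to 4408992 expected counts and 26796 to 29158 genes.

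In leaf, 105 of the 184 genes were lower by size under low N and 37 were higher, of 172 at the 2 FPKM filter. Over all genes at the filter 6.70% were lower and 11.7% higher by size, and over genes at the filter from either filtered table, 26.1% were lower and 53.0% higher. Nothing is read from these shares because the rule used this contrast. The median change of the 172 was -1.07, beside 0.12 for all genes at the filter. In root, 21 of 155 were lower and 16 higher by size, with a median of -0.08. Over all genes 6.90% were lower and 4.67% higher there, and 26.4% and 15.9% among the genes that either table lists. By the authors' deposited table for leaf, 115 of these genes were lower and 36 higher, against 2.54% lower and 5.26% higher of all detected genes. The authors' deposited table for root held 20 lower and 15 higher, against 2.69% and 1.75% of all detected genes, and 2 genes stood in both tables. Together the 184 genes took 2.11% of expected counts in low-N leaf, 4.40% in normal-N leaf, 0.667% in low-N root and 0.815% in normal-N root.

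**Figure D1:**
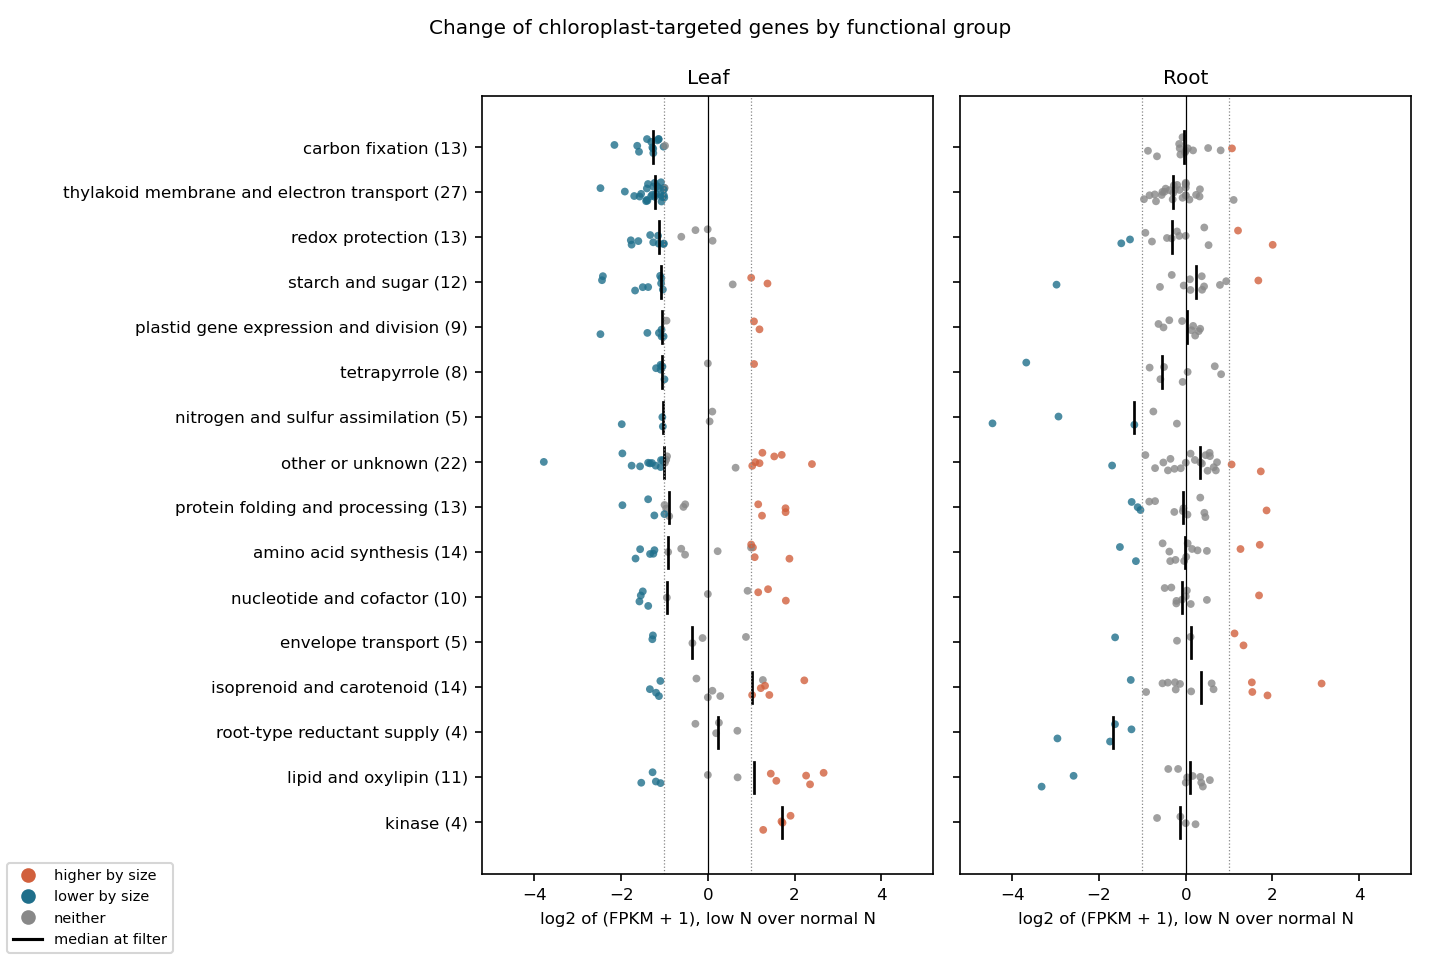
Each point is 1 gene, placed by its log2 change of (FPKM + 1), low N over normal N, in leaf (left panel) and root (right panel), with genes sorted by function into 16 groups and the group size in brackets. Colours mark genes higher, lower or neither by size, dotted lines the limit of 1, and black bars the median of genes at the 2 FPKM filter. Thylakoid and carbon fixation genes sit at about -1 or below in leaf and mostly nearer 0 in root, while reductant supply genes are at -1.25 or below in root.

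Genes of the thylakoid membrane and electron transport were the largest group, 27 in number, and 26 of them were lower by size in low-N leaf with 0 higher. The median change was -1.23, and the folds ran from 2.02 to 6.02 lower. In root, 0 of the 14 at the filter were called. Their median level was 66.6 FPKM in low-N leaf, 142.65 FPKM in normal-N leaf, 1.45 FPKM in low-N root and 2.57 FPKM in normal-N root. The leaf mean was at least 10 times the root mean for 22 of the 27. The highest root levels of the group were 38.4 FPKM under low N and 63.6 FPKM under normal N. The choice of genes used the leaf libraries, so nothing is read from the difference between leaf and root.

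The iron-sulfur subunit of the cytochrome b6-f complex (Ma09_g25040), which passes electrons between the photosystems, was at 818 FPKM in low-N leaf, 1991 in normal-N leaf, 23.9 in low-N root and 28.7 in normal-N root. It was 2.44-fold lower in low-N leaf (95% counting interval 2.32 to 2.56). Subunit 7 of the same complex (Ma02_g18910) was at 146 FPKM in low-N leaf and 342 FPKM in normal-N leaf, 2.35-fold lower (2.00 to 2.77), and had no fragments in either root library. The delta chain of the chloroplast ATP synthase (Ma09_g12650) was 2.04-fold lower (1.73 to 2.42). These parts of electron transport and ATP formation were all lower by between 2.04-fold and 2.44-fold.

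The leaf isozyme of ferredoxin--NADP reductase (Ma11_g01370), which makes the NADPH of photosynthesis, was at 181 FPKM in low-N leaf and 433 FPKM in normal-N leaf, 2.40-fold lower (2.21 to 2.61). It was at 0.61 FPKM in both root libraries, so this isozyme was a leaf transcript here. TIC 62, a protein that binds this reductase, had 2 genes. Ma08_g04750 was at 91.5 FPKM in low-N leaf and 216 FPKM in normal-N leaf. Ma10_g02300 was at 142 FPKM in low-N leaf and 312 FPKM in normal-N leaf. Both were lower by size, 2.36-fold (2.14 to 2.60) and 2.20-fold (2.04 to 2.38).

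CURVATURE THYLAKOID 1 proteins bend the thylakoid membrane at the margins of its stacks, and all 6 of the genes picked here were lower by size in low-N leaf. Their FPKM summed to 766 in low-N leaf, 1829 in normal-N leaf, 25.7 in low-N root and 33.8 in normal-N root. The family did not move by a common factor. The abundant 1B gene (Ma08_g12110) was at 528 FPKM in low-N leaf and 1069 FPKM in normal-N leaf, 2.03-fold lower (1.91 to 2.17). The scarcer 1B gene (Ma05_g16180) was at 10.4 FPKM in low-N leaf and 62.7 FPKM in normal-N leaf, 6.02-fold lower (3.77 to 10.1). Those intervals do not overlap, so the unequal change of the pair exceeded counting error.

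Factors described as acting on photosystem II were lower as well. CYP38 (Ma01_g07520), a lumen protein needed for photosystem II assembly in Arabidopsis, was at 21.1 FPKM in low-N leaf and 63.3 FPKM in normal-N leaf, 3.0-fold lower (2.43 to 3.73). PsbP domain-containing protein 3 (Ma09_g18000) was at 86.0 FPKM in low-N leaf and 228 FPKM in normal-N leaf. LOW PSII ACCUMULATION 1 (Ma04_g36740) was 2.15-fold lower (1.74 to 2.68). LOW PSII ACCUMULATION 3 (Ma04_g05730), at 20.0 FPKM in low-N leaf and 40.8 FPKM in normal-N leaf, was the member of the group below the size limit.

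Carbon fixation genes were lower by size for 12 of 13 in leaf and higher for 0, with a median change of -1.26. In root 1 of 10 at the filter was higher and 0 lower. The enzymes of the Calvin cycle regenerate the acceptor of carbon dioxide after the carboxylase RuBisCO has used it. The abundant RuBisCO small chain (Ma02_g24600) alone took 1.03% of expected counts in low-N leaf and 2.46% in normal-N leaf, and the other 183 genes took 1.09% and 1.94% in the same libraries. The summed share was lower in low-N leaf without that gene too, but the rule used this contrast, so nothing is read from it.

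CP12-1 (Ma11_g04890), a small protein that ties Calvin cycle enzymes into an inactive complex in the dark, was at 623 FPKM in low-N leaf and 1513 FPKM in normal-N leaf. It was 2.44-fold lower (2.26 to 2.63). Ribulose-phosphate 3-epimerase (Ma02_g23800), which interconverts pentose phosphates, was at 205 FPKM in low-N leaf, 508 in normal-N leaf, 31.8 in low-N root and 51.0 in normal-N root. Triosephosphate isomerase (Ma09_g24600) was at 112 FPKM in low-N leaf and 338 FPKM in normal-N leaf, 3.03-fold lower (2.72 to 3.39). Phosphoglycerate kinase (Ma06_g01900) was at 97.1 FPKM in low-N leaf and 258 FPKM in normal-N leaf, 2.67-fold lower (2.43 to 2.94). Folds ran from 2.02 to 6.17 lower over all 13 genes, and the 1 below the size limit was rubisco accumulation factor 1 (Ma11_g15600).

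Ribose-5-phosphate isomerase 3 had 2 genes of different tissue preference. Ma09_g10250 was at 186 FPKM in low-N leaf, 418 in normal-N leaf, 12.1 in low-N root and 6.50 in normal-N root. Ma08_g03020 was at 39.5 FPKM in low-N leaf, 81.3 in normal-N leaf, 69.3 in low-N root and 76.4 in normal-N root. Both were lower by size in low-N leaf, the leaf-dominant gene by 2.25-fold (2.05 to 2.48) and the other by 2.06-fold (1.67 to 2.56). RuBisCO activase (Ma10_g05930), which keeps the carboxylase open, was at 9.85 FPKM in low-N leaf and 22.8 FPKM in normal-N leaf, with no fragments in root.

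**Figure D2:**
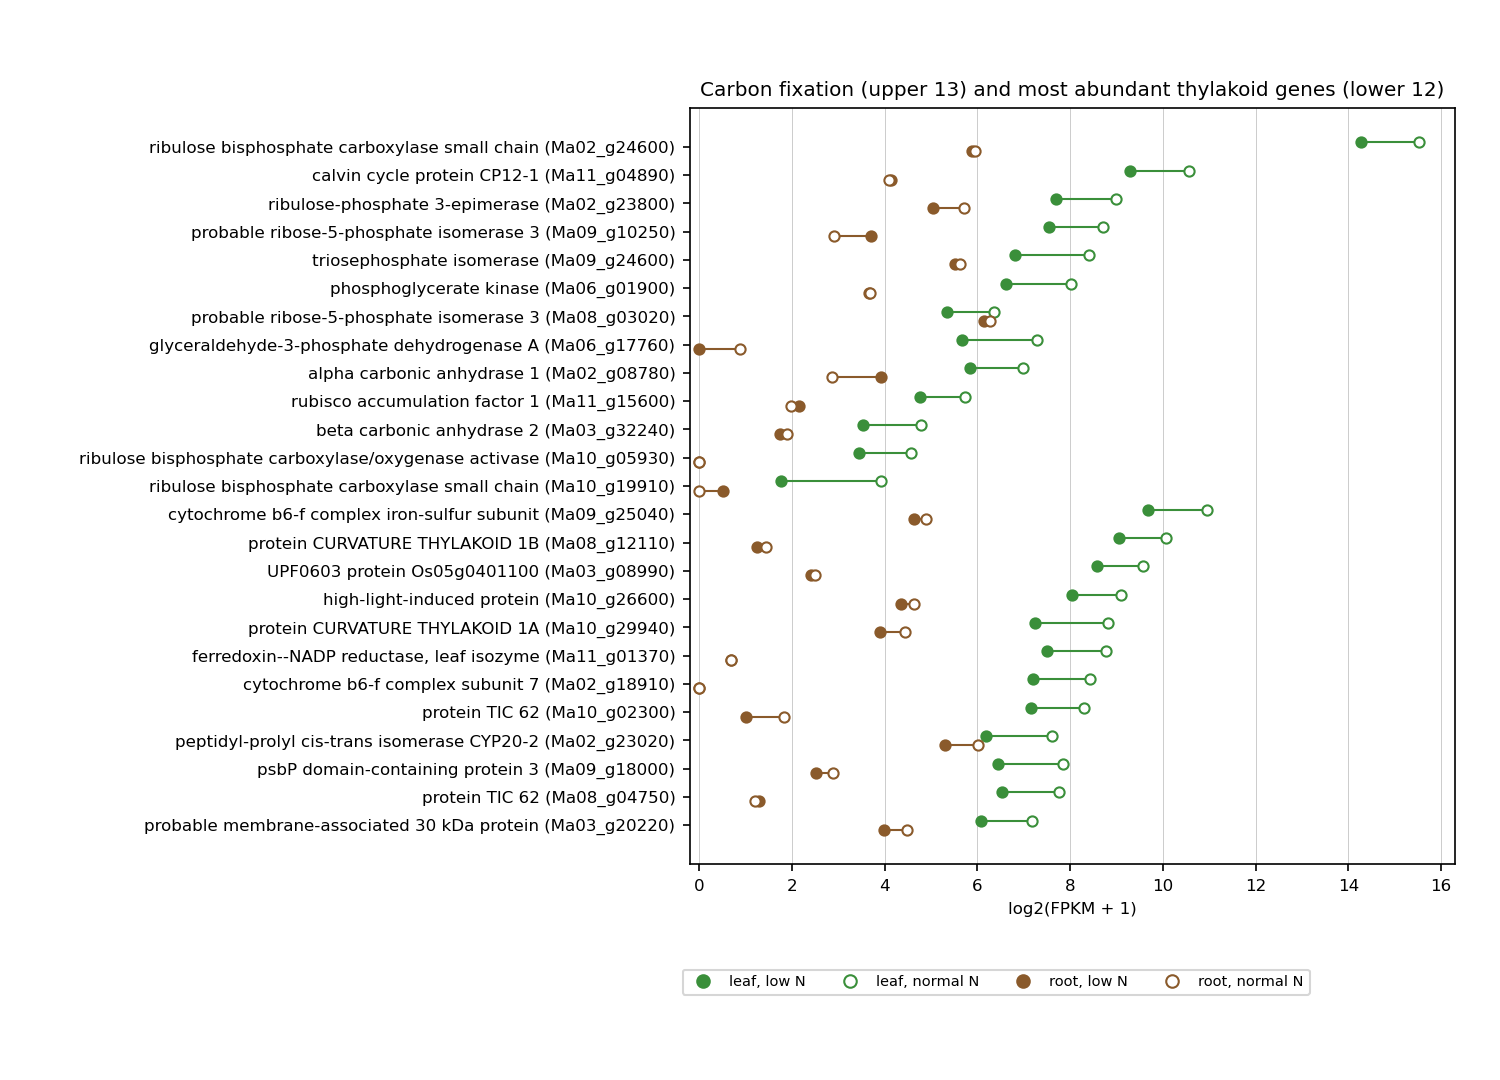
Levels as log2(FPKM + 1) in each of the 4 libraries (1 library per group) for the 13 carbon fixation genes and the 12 most abundant thylakoid genes. Filled circles are low N, open circles normal N, green is leaf and brown is root, and a line joins the libraries of a tissue. In every row the filled green circle lies left of the open green circle, and all but Ma08_g03020 lie right of both brown circles.

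Marker lists were set beside the leaf result. The leaf mesophyll list (31 genes of antenna, photosystem and RuBisCO small chain, all from the filtered tables, 2 of them among the 184) summed to 22488 FPKM in low-N leaf, 54865 in normal-N leaf, 171 in low-N root and 309 in normal-N root, and 9 and 11 of them were at 0 in low-N and normal-N root. In leaf 0 were higher and 30 lower by size of 30 at the filter. Another RuBisCO small chain gene (Ma07_g15870) went against the list, at 0.95 FPKM in low-N leaf, 1.89 in normal-N leaf, 81.55 in low-N root and 224 in normal-N root. Without it the root sums were 89.1 FPKM under low N and 84.5 FPKM under normal N, and a further gene, Ma05_g08930, was lower in low-N leaf than in root. The other 29 were higher in both leaf libraries than in both root libraries. Without the abundant RuBisCO small chain the sums were 2817 FPKM in low-N leaf and 7823 FPKM in normal-N leaf. The 4 senescence genes summed to 253 FPKM in low-N leaf, with 1 at 0, and 115 FPKM in normal-N leaf, with 2 higher and 1 lower by size. The 12 secondary-wall genes summed to 15.0 FPKM in low-N leaf and 18.9 FPKM in normal-N leaf, with 4 and 1 at 0, and 0 were called of 1 at the filter. The 12 genes of the root endodermis and surface list summed to 160 FPKM in low-N leaf and 48.3 FPKM in normal-N leaf. Of them 3 were at 0 in each, and 4 were higher and 1 lower by size of 6 at the filter. The sums were 41.5 and 29.9 FPKM without a high-affinity nitrate transporter (Ma04_g06400). Their part in the result was not tested, and fewer photosynthetic cells cannot be told apart from less of these transcripts per cell.

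Redox protection genes, among them enzymes that use thioredoxin, glutathione or ascorbate to remove peroxide, were lower by size in leaf for 9 of 13 and higher for 0. In root 2 were lower and 2 higher. Peroxiredoxin Q (Ma05_g16490), a thylakoid-bound peroxidase, was at 449 FPKM in low-N leaf, 1539 in normal-N leaf, 1.81 in low-N root and 1.09 in normal-N root. It was 3.44-fold lower in low-N leaf (3.22 to 3.67), above the folds of the 2-Cys peroxiredoxins BAS1, which were 2.04-fold (1.89 to 2.20) for Ma08_g19280 and 2.23-fold (2.02 to 2.47) for Ma06_g19550. DHAR3 (Ma07_g20150), a dehydroascorbate reductase, was at 29.5 FPKM in low-N leaf and 102 FPKM in normal-N leaf, 3.47-fold lower (2.75 to 4.41).

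Not every redox gene followed. Thioredoxin F1 (Ma08_g01000), which activates Calvin cycle enzymes in the light, was at 493 FPKM in low-N leaf and 494 FPKM in normal-N leaf. In root it was at 13.5 FPKM under low N and 2.61 FPKM under normal N, 5.15-fold higher (2.12 to 15.1). Peroxiredoxin-2E-2 (Ma10_g11440) was at 347 FPKM in low-N leaf, 531 in normal-N leaf, 51.4 in low-N root and 21.7 in normal-N root. Monodehydroascorbate reductase (Ma05_g17240), which regenerates ascorbate, was at 6.24 FPKM in low-N leaf, 5.71 in normal-N leaf, 21.4 in low-N root and 61.8 in normal-N root, 2.90-fold lower in root (2.38 to 3.54).

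The picked genes of plastid nitrite reduction, glutamate formation and their supply of reductant were lower by size in low-N root. Nitrite reductase takes electrons from ferredoxin, which root plastids reduce through a root-type ferredoxin--NADP reductase run backwards on NADPH, and NADPH comes from the oxidative pentose phosphate pathway. All 4 picked genes of reductant supply were lower by size in root and 0 of 4 were called in leaf. The group was sorted by hand after its values had been seen, so its common direction is a description. Summed over these 4, nitrite reductase and the 2 NADH glutamate synthases, levels were 276 FPKM in low-N root and 1200 FPKM in normal-N root, and 509 FPKM in low-N leaf and 499.9 FPKM in normal-N leaf.

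The root isozyme of ferredoxin--NADP reductase (Ma04_g34890) was at 46.5 FPKM in low-N leaf, 38.8 in normal-N leaf, 40.0 in low-N root and 318 in normal-N root. It was 7.98-fold lower in low-N root (6.89 to 9.29), where its level came down to that of leaf. The embryo isozyme (Ma04_g38200) was at 33.3 FPKM in low-N leaf, 40.9 in normal-N leaf, 90.1 in low-N root and 305 in normal-N root, 3.39-fold lower in root (3.05 to 3.77). The 2 genes stood at about the same level in normal-N root, but their folds had intervals that do not overlap.

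Glucose-6-phosphate 1-dehydrogenase (Ma06_g18080), the entry step of the oxidative pentose phosphate pathway, was at 12.3 FPKM in low-N leaf, 7.27 in normal-N leaf, 36.0 in low-N root and 114 in normal-N root. It was 3.17-fold lower in low-N root (2.77 to 3.63). The next dehydrogenase of that pathway, 6-phosphogluconate dehydrogenase (Ma03_g17510), was at 49.2 FPKM in low-N root and 119 FPKM in normal-N root, 2.42-fold lower (2.12 to 2.76). These picked genes of both NADPH-forming steps were lower by size in root, and other genes of the steps were not examined.

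Ferredoxin--nitrite reductase (Ma09_g14720) was at 374 FPKM in low-N leaf, 348 in normal-N leaf, 8.11 in low-N root and 199 in normal-N root. Its root change was -4.46, and its count 24.6-fold lower (19.2 to 32.1). NADH glutamate synthase, which makes glutamate from glutamine, had a root-borne gene and a broadly expressed gene. The root-borne gene (Ma08_g28590) was at 0.07 FPKM in low-N leaf, 0.04 in normal-N leaf, 3.27 in low-N root and 31.7 in normal-N root, 9.69-fold lower in root (7.86 to 12.1). The other (Ma07_g25920) was at 22.7 FPKM in low-N leaf, 47.6 in normal-N leaf, 49.8 in low-N root and 115 in normal-N root, and was lower by size in both tissues. The gene restricted to root thus had the larger fold there.

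The picked genes of sulfur assimilation were lower by size in leaf, and nitrite reductase in root. The rule took genes for a change in either tissue, so nothing is read from this difference. The enzyme 5'-adenylylsulfate reductase 3 (Ma02_g15730), which commits activated sulfate to cysteine synthesis, was at 88.9 FPKM in low-N leaf, 355 in normal-N leaf, 11.9 in low-N root and 20.6 in normal-N root. It was 4.00-fold lower in low-N leaf (3.64 to 4.41). Sulfite reductase (Ma01_g16340), the following step, was 2.10-fold lower in leaf (1.87 to 2.35). Neither was called in root.

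**Figure D3:**
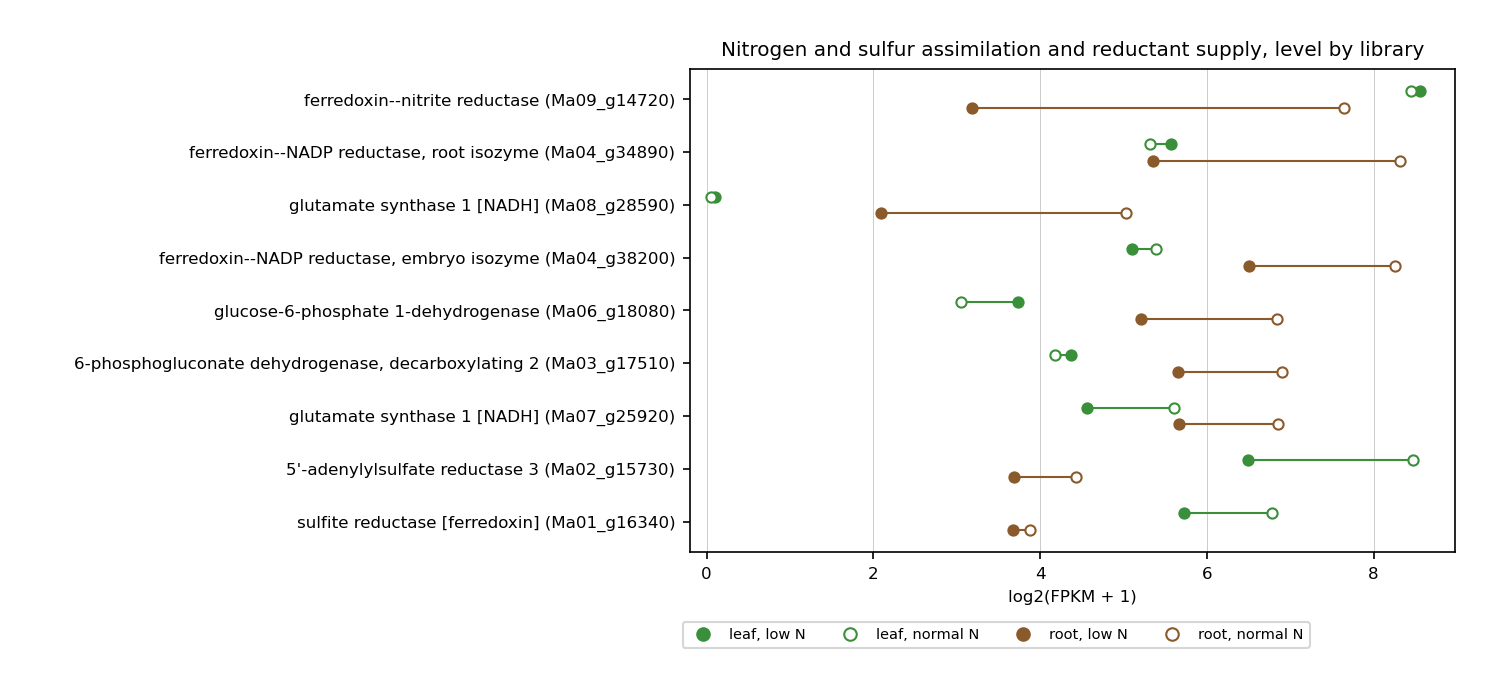
Levels as log2(FPKM + 1) in each of the 4 libraries (1 library per group) for the 9 genes of nitrogen and sulfur assimilation and reductant supply, ordered by their root change. Filled circles are low N, open circles normal N, green is leaf and brown is root. The upper 7 rows have long brown lines with the low-N circle on the left, and the 2 sulfur genes have their longer line in leaf.

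Marker lists were set beside the root result as well, and each held genes that went either way. The 12 genes of the root endodermis and surface list summed to 274 FPKM in low-N root and 764 FPKM in normal-N root. They comprise dirigent proteins, a casparian strip protein and nitrate transporters of the NRT2 type, with 2 higher and 9 lower by size in root. The casparian strip gene (Ma08_g07640) was among the higher ones, at 16.9 FPKM under low N and 3.75 FPKM under normal N. The 12 secondary-wall genes summed to 116 FPKM in low-N root and 365 FPKM in normal-N root, with 4 higher and 8 lower by size. None of either list was at 0 in root, and their part in the result was not tested.

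Other plastid genes of root metabolism went in both directions. Oxygen-dependent coproporphyrinogen-III oxidase (Ma02_g04400), a late step of haem synthesis, was at 0.77 FPKM in low-N root and 21.7 FPKM in normal-N root, 28.6-fold lower (10.9 to 107), and had no fragments in leaf. Pyruvate, phosphate dikinase (Ma02_g03830), which makes phosphoenolpyruvate from pyruvate, was at 9.58 FPKM in low-N root and 82.5 FPKM in normal-N root, 8.64-fold lower (7.11 to 10.6). Acyl-[acyl-carrier-protein] desaturases, which put the double bond into plastid fatty acids, had 2 genes lower in root. Ma08_g32940 was at 7.75 FPKM in low-N root and 51.6 FPKM in normal-N root, 6.66-fold lower (4.75 to 9.59), and Ma07_g03130 was at 0 FPKM in low-N root and 9.02 FPKM in normal-N root. Ma07_g03130 was at least 15.4-fold lower by a floor of 3 counts in low-N root, a bound that leaves out the counting error of normal-N root, and it had no fragments in leaf.

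Of 12 isoprenoid genes at the filter in root, 4 were higher and 1 lower by size under low N. Carotenoid cleavage dioxygenase 8 (Ma02_g11250), which acts in the synthesis of the hormone strigolactone, was at 1.41 FPKM in low-N leaf, 0 in normal-N leaf, 19.4 in low-N root and 1.32 in normal-N root. It was 14.6-fold higher in low-N root (7.74 to 31.2), a change of 3.13. Geranylgeranyl pyrophosphate synthase 7 (Ma00_g02690), which makes the precursor of carotenoids, was at 74.4 FPKM in low-N root and 25.2 FPKM in normal-N root, 2.94-fold higher (2.40 to 3.63). Entry enzymes of the plastid isoprenoid pathway, the 1-deoxy-D-xylulose-5-phosphate synthases 2, were at 11.0 FPKM in low-N root and 3.15 FPKM in normal-N root (Ma05_g14980), and at 3.47 and 0.21 FPKM there (Ma05_g26990). These 4 genes were higher by size in low-N root and held at most 1.41 FPKM in leaf.

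In the same group, zeaxanthin epoxidase of root (Ma07_g03980) was at 7.01 FPKM in low-N root and 18.3 FPKM in normal-N root, 2.61-fold lower (1.78 to 3.91). A second zeaxanthin epoxidase (Ma05_g18070) was at 39.4 FPKM in low-N leaf and 18.9 FPKM in normal-N leaf, 2.08-fold higher (1.63 to 2.67). The enzyme feeds the synthesis of abscisic acid, whose committed step is 9-cis-epoxycarotenoid dioxygenase. Its 2 picked genes were at 5.64 FPKM in low-N leaf and 1.66 FPKM in normal-N leaf (Ma04_g29400), and at 4.48 and 1.05 FPKM there (Ma06_g32880). Of 9 isoprenoid genes at the filter in leaf, 5 were higher and 4 lower by size, with prolycopene isomerase (Ma08_g08160), a step of carotenoid synthesis, at 20.6 FPKM in low-N leaf and 53.6 FPKM in normal-N leaf.

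Amino acid synthesis genes numbered 2 higher and 2 lower by size of 14 in root, and envelope transport genes 2 higher and 1 lower of 5. Glucose-6-phosphate/phosphate translocator 2 (Ma04_g40040), which brings hexose phosphate into plastids, was at 19.5 FPKM in low-N root and 5.43 FPKM in normal-N root, 3.63-fold higher (2.37 to 5.73). Arogenate dehydrogenase 2 (Ma06_g37070), which leads to tyrosine, was at 39.3 FPKM in low-N root and 11.3 FPKM in normal-N root, 3.47-fold higher (2.54 to 4.82). An arogenate dehydratase/prephenate dehydratase 6 (Ma08_g33410), which leads to phenylalanine, was at 34.3 FPKM in low-N root and 13.7 FPKM in normal-N root, 2.49-fold higher (1.92 to 3.24). Both arogenate genes were at or below 0.53 FPKM in leaf. The amino acid genes lower in root were shikimate kinase 3 (Ma03_g20800) and a branched-chain aminotransferase-like protein 3 (Ma07_g10680), which was at 12.6 FPKM in low-N root and 29.2 FPKM in normal-N root, 2.32-fold lower (1.73 to 3.14).

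Lipid and oxylipin genes in leaf were higher by size for 5 and lower for 4 of 10 at the filter. In root 0 were higher and 2 lower of 10. Allene oxide synthase starts the branch that makes jasmonate, and phospholipases of the A1 class release its fatty acid precursors. Allene oxide synthase 1 (Ma02_g15160) was at 33.4 FPKM in low-N leaf and 5.72 FPKM in normal-N leaf, 5.83-fold higher (4.06 to 8.60), and a second gene of that name (Ma04_g38880) was 3.40-fold higher (2.26 to 5.26). A gene described as allene oxide synthase without a number (Ma06_g15030) went the other way, at 3.80 FPKM in low-N leaf and 10.02 FPKM in normal-N leaf.

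The phospholipases A1-Igamma1 were at 13.5 FPKM in low-N leaf and 1.28 FPKM in normal-N leaf (Ma05_g02400), and at 7.71 and 0.81 FPKM there (Ma05_g02390). Their folds were 10.6 (5.12 to 25.2) and 9.45 (3.77 to 30.4). The pair shares a description and had counts that were not whole, so fragments may have been split between near-identical copies. Lower members included an acyl-[acyl-carrier-protein] desaturase (Ma07_g24340), at 13.7 FPKM in low-N leaf and 41.6 FPKM in normal-N leaf, and UDP-sulfoquinovose synthase (Ma10_g12930), which makes the sulfolipid head group of thylakoids, at 69.1 and 148 FPKM there.

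All 4 genes described as protein kinases were higher by size in low-N leaf and 0 were called in root. Protein kinase 2B (Ma01_g14970) was at 58.4 FPKM in low-N leaf and 14.8 FPKM in normal-N leaf, 3.93-fold higher (3.05 to 5.11). Kinase Cx32 (Ma04_g11770) was at 12.2 FPKM in low-N leaf and 4.43 FPKM in normal-N leaf, with no fragments in root. The GTP diphosphokinase RSH2 (Ma07_g02300), which makes the stringent-response nucleotide of plastids, was at 79.2 FPKM in low-N leaf, 22.03 in normal-N leaf, 21.0 in low-N root and 20.6 in normal-N root, 3.58-fold higher in leaf (3.06 to 4.21).

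Protein folding and processing genes were split in leaf, 4 higher and 4 lower by size of 13, and 4 higher and 7 lower after median-ratio scaling. Both thylakoidal processing peptidases 1, which cut the lumen-targeting signal from imported proteins, were higher by size in low-N leaf. Ma07_g08190 was at 90.0 FPKM in low-N leaf and 25.3 FPKM in normal-N leaf, 3.55-fold higher (2.91 to 4.37). Ma10_g28590 was at 61.4 FPKM in low-N leaf and 17.0 FPKM in normal-N leaf, 3.60-fold higher (2.55 to 5.17). The 20 kDa chaperonins were at 105 FPKM in low-N leaf and 211 FPKM in normal-N leaf (Ma11_g08860) and at 29.7 and 78.8 FPKM there (Ma05_g04870).

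Amino acid synthesis genes went both ways in leaf. Arogenate dehydratase 3 (Ma04_g19810) was at 134 FPKM in low-N leaf, 35.5 in normal-N leaf, 141 in low-N root and 137 in normal-N root, 3.75-fold higher in leaf (3.17 to 4.46). Low-N leaf thus reached the level of root. Of branched-chain synthesis, ketol-acid reductoisomerase (Ma06_g24910) was lower by size, at 25.2 FPKM in low-N leaf and 61.7 FPKM in normal-N leaf. A branched-chain aminotransferase 3 (Ma03_g16060) was higher by size, at 92.3 FPKM in low-N leaf and 43.1 FPKM in normal-N leaf. Shikimate kinase 3 (Ma03_g20800), of the pathway to all aromatic amino acids, was lower by size in both tissues, 3.52-fold in leaf (2.22 to 5.80) and 3.01-fold in root (2.21 to 4.16). The group had 4 genes higher and 5 lower by size in leaf, and 1 higher and 6 lower after median-ratio scaling.

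Starch and sugar genes were lower by size for 9 of 12 in leaf and higher for 2. Alpha-1,4 glucan phosphorylase (Ma04_g39130), which releases glucose 1-phosphate from starch, was at 10.4 FPKM in low-N leaf and 60.7 FPKM in normal-N leaf, 5.87-fold lower (4.87 to 7.12). Starch branching enzyme 1 had 2 genes, at 1.82 FPKM in low-N leaf and 14.1 FPKM in normal-N leaf (Ma05_g18630) and at 11.2 and 30.6 FPKM there (Ma06_g09160). The small subunit of glucose-1-phosphate adenylyltransferase (Ma01_g00130), which makes the glucosyl donor of starch, was at 438 FPKM in low-N leaf and 922 FPKM in normal-N leaf. Glucose-6-phosphate isomerase 1 (Ma10_g24940) was higher, at 6.63 FPKM in low-N leaf and 1.94 FPKM in normal-N leaf.

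Tetrapyrrole genes, which make or break down chlorophyll and haem, were lower by size for 6 of 7 in leaf at folds between 2.03 and 2.35. Porphobilinogen deaminase (Ma08_g33750) was at 22.7 FPKM in low-N leaf and 48.6 FPKM in normal-N leaf. Pheophytinase (Ma08_g17060), which removes the phytol tail in chlorophyll breakdown, was at 92.6 FPKM in low-N leaf and 43.7 FPKM in normal-N leaf, 2.12-fold higher (1.83 to 2.44). The chlorophyll b reductase NYC1 (Ma10_g26330), also of breakdown, was lower, at 19.5 FPKM in low-N leaf and 45.9 FPKM in normal-N leaf. Pheophytinase, the 1 gene of the group called higher, was not called after median-ratio or upper-quartile scaling.

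Plastid gene expression and division genes were lower by size for 6 and higher for 2 of 9 in leaf. The sigma factor sigF (Ma04_g36810), a subunit that directs the plastid RNA polymerase to promoters, was at 1.23 FPKM in low-N leaf and 11.4 FPKM in normal-N leaf, 9.29-fold lower (2.87 to 47.7). The ribosome-recycling factor (Ma07_g07510) was at 63.0 FPKM in low-N leaf and 167 FPKM in normal-N leaf. FtsZ homolog 1 (Ma07_g06360), of the ring that divides chloroplasts, was at 11.0 FPKM in low-N leaf and 24.1 FPKM in normal-N leaf. Of cofactor genes, riboflavin synthesis proteins RIBA 1 went both ways, at 21.3 FPKM in low-N leaf and 64.3 FPKM in normal-N leaf (Ma06_g32150), and at 105 and 46.4 FPKM there (Ma10_g24730).

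Leaf and root calls were set side by side, with the caveat that the rule took genes from either table. Of the 184 genes, 101 were lower by size in leaf and 34 higher without a call in root. In root 16 were lower and 14 higher without a call in leaf. Genes without a call include those below the 2 FPKM filter, which 172 genes reached in leaf and 155 in root. Of the 115 genes lower by the authors' deposited table for leaf, 26 were under 2 FPKM in both root libraries. Lower in both tissues were 3, namely Ma03_g20800, Ma07_g25920 and the small heat shock protein Ma02_g14380, whose root fold of 3.35 had an interval of 0.861 to 18.9. Higher in both was 1, Ma01_g10540, described as UPF0503. Opposite calls were made for 3 genes. Of the 172 genes called in at least 1 tissue, 2.33% had the same call in both and 1.74% opposite calls. These shares were 5.01% and 4.32% over genes of either filtered table, and 4.41% and 3.85% over all genes, and the differences were not tested.

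**Figure D4:**
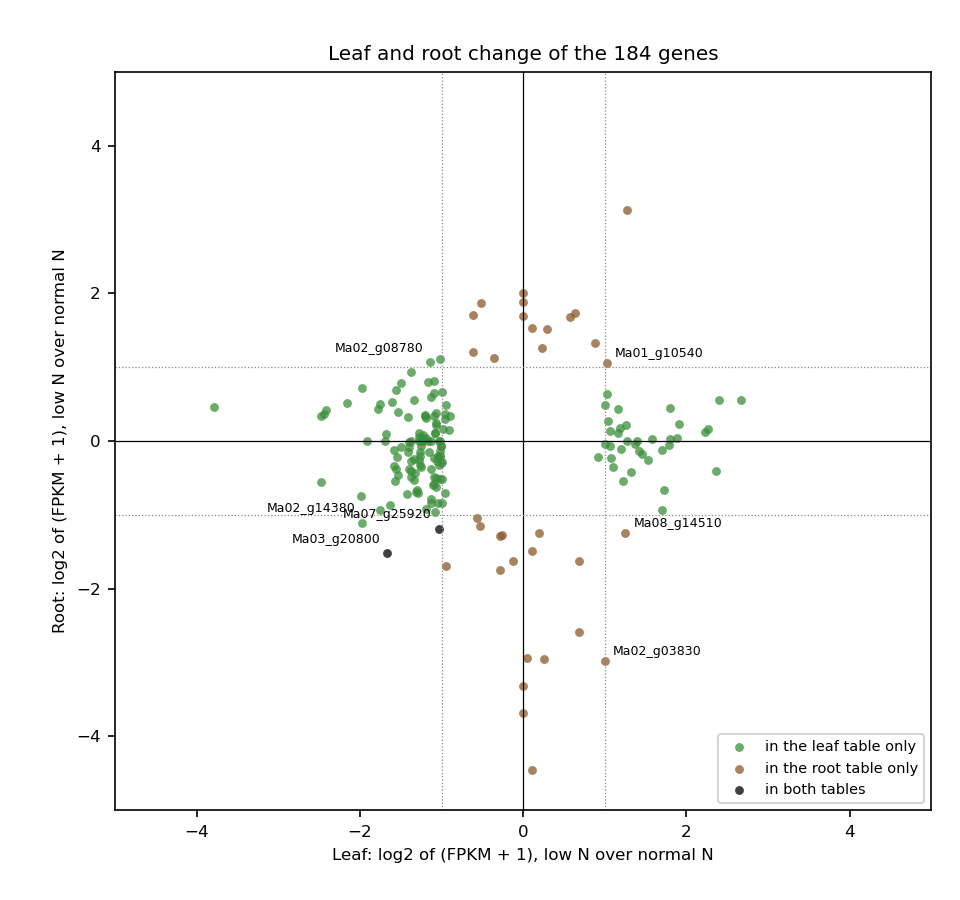
Each point is 1 of the 184 genes, with its log2 change of (FPKM + 1), low N over normal N, in leaf on the horizontal axis and in root on the vertical axis. Green genes stood in the leaf table only, brown in the root table only and black in both, dotted lines mark the limit of 1, and genes called in both tissues carry their identifier. Most green genes lie between the dotted lines of the root axis and most brown genes between those of the leaf axis, and the sparse area near the origin comes from the rule that chose the genes.

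Leaf over root is a contrast that the rule did not use, although it shares libraries with those it used. Under low N, 92 of 180 genes at the filter were higher by size in leaf than in root and 41 lower, beside 22.8% higher and 37.1% lower over all genes. Under normal N, 99 of 180 were higher and 48 lower, beside 20.1% and 42.2% over all genes. Over genes of either filtered table the shares were 34.7% higher and 35.6% lower under low N, and 23.3% and 49.9% under normal N. The median leaf over root difference on the log2(FPKM + 1) scale was 1.08 under low N and 1.41 under normal N, beside -0.35 and -0.63 for all genes.

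Of the genes lower in the leaf table, 72 of 114 at the filter were higher and 19 lower by size in leaf than in root under low N, and 89 of 115 were higher and 9 lower under normal N. Of these 115 genes, 52 (45.2%) had a root mean of at least 10 FPKM. Of the genes higher in the leaf table, 15 of 36 were higher and 4 lower by size in leaf than in root under low N, and 5 of 35 were higher and 20 lower under normal N. Their root mean had a median of 13.5 FPKM, beside 9.02 FPKM for those lower in the leaf table. Both leaf libraries enter the choice as well as these contrasts. Genes chosen for a high or a low level in 1 of them are thereby shifted above or below root, and nothing is read from these counts.

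By the authors' deposited table, members closest to its limits in leaf were a small heat shock protein (Ma10_g16680), with a log2 ratio of -1.01, and a RuBisCO large subunit-binding protein (Ma11_g06010), with an FDR of 0.000908. In the root table, dnaJ 20 (Ma03_g17570) was closest on both, at -1.10 and 0.000927. Genes just outside the limits carry no description in the files, so which of them are chloroplastic could not be read. The 45 chloroplastic genes that the excluded terms removed had 36 lower and 8 higher by size in leaf, and 45 genes described as mitochondrial had 16 lower and 22 higher of 42 at the filter. All 3 sets come from the same filtered tables.

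Scaling bears on each leaf count. Median-ratio scaling moved the median change of all genes at the filter in leaf to -0.08, against 0.12 with FPKM as deposited. The balance over all genes at the filter turned with it, to 1970 higher and 2268 lower by size (46.5% of called genes higher), against 2537 higher and 1454 lower (63.6%) as deposited. Upper-quartile scaling did not turn it, with 2161 higher and 1929 lower (52.8%). Among the 184 genes, 18.3% of called genes were higher after median-ratio scaling and 19.4% after upper-quartile scaling, against 26.1% as deposited.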

How the data were processed

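Per the file headers, the authors deposited an expected count (estimated fragments per gene) and an FPKM value for each gene of each library, and a filtered table per tissue that gives each gene's log2 ratio, p-value and false discovery rate (FDR). BWA and Bowtie are named in the submitters' processing notes, and no source used here gives the counting tool, genome build, annotation or test. The authors' deposited log2 ratios were at least 1.00 in size, with FDR up to 0.000997. Their p-values compare library with library and were not used as tests. Since 0 of 31873 gene IDs occur in the RefSeq gene table, no position or sequence is given. Of gene lengths, 94.4% were divisible by 3, as coding lengths would be.

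Genes were taken by description (chloroplastic, 13 excluded terms). The genes and lists were chosen with earlier results of these data known. Functional groups were sorted by hand on descriptions after values were seen, and 10 search-term lists hold 130 of the 184 genes. Named genes were the 10 most positive and 10 most negative of each tissue's table with at least 5 FPKM, the 10 most abundant, those in both tables, up to 2 per direction and term list, the 5 at either end of leaf over root under normal N, and those nearest the authors' limits. Others were named as examples of a group after their values were seen. Expected counts were rounded for folds. Non-whole counts (tolerance 1e-06) occurred in 77 of 184 genes, so reads shared with other genes may have been split. A library at 0 was bounded with 3 counts, which is 0.680 to 0.724 FPKM for a 1 kb gene. Computation used Python 3.11.15, pandas 2.3.3 and SciPy 1.17.1, and the fold and call functions were tested on simulated counts. Alternatives were other pseudocounts, filters, scalings, size limits and memberships.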

Additional observations from a re-analysis of the deposited data

Results flagged for a closer look

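Opposite calls by size in leaf and root, untested because each group had 1 library, drew attention to 3 genes. Pyruvate, phosphate dikinase (Ma02_g03830) had a log2 change of 1.00 in leaf, at the limit itself and at 2.06 FPKM in low-N leaf and 0.53 FPKM in normal-N leaf, and -2.98 in root. Alpha carbonic anhydrase 1 (Ma02_g08780), which hydrates carbon dioxide, had -1.14 in leaf and 1.07 in root, where it was at 14.2 FPKM under low N and 6.24 FPKM under normal N, 2.26-fold higher (95% counting interval 1.35 to 3.93). Chaperone dnaJ 11 (Ma08_g14510) had 1.25 in leaf, with a fold interval of 0.863 to 18.9 that includes no change, and -1.25 in root, at 26.1 FPKM under low N and 63.4 FPKM under normal N. The difference between tissues was not tested for any of them.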

How the results depend on the processing

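Of 116 recomputed counts and medians 100 stayed within 1.5 times (counts) or within the genes' median counting interval (medians). A reversal could be scored only for medians of at least 1 in size, and 0 of those reversed. Counts and the root median could not be scored as reversed, so nothing is read from them on this point. Of 696 recomputed changes of named genes 54 moved and 0 called ones changed sign. A change moved when it left its counting interval, or a fixed log2 width where a library at 0 left no interval. With a pseudocount of 5 FPKM, 21 genes were higher by size in leaf and 9 in root. At a size limit of 2, leaf had 5 higher and 6 lower and root 2 higher and 7 lower, and leaf was lower than root for 22 genes under low N and 30 under normal N. With 1 gene kept per description (159 genes), the median leaf over root difference under normal N was 1.85. In an alternative chosen after seeing the data, the 107 genes with whole counts in all 4 libraries had 17 higher and 65 lower in leaf and 10 higher and 10 lower in root. Leaf was lower than root for 17 of them under low N and 15 under normal N, with a median of 2.26 under normal N. Fewer genes entered those counts by construction. For the medians and pseudocounts the cause was not tested. By the search-term lists, genes higher and lower by size in leaf were 0 and 13 (carbon fixation), 2 and 22 (electron transport and redox), 4 and 5 (tetrapyrrole and carotenoid), 5 and 4 (lipid), 5 and 6 (amino acid and nitrogen), 2 and 8 (starch and sugar), 0 and 4 (envelope transport), 2 and 6 (chaperone and protease), 1 and 3 (plastid gene expression) and 3 and 1 (nucleotide and cofactor). In root the same lists had, in that order, 1 and 0, 2 and 4, 4 and 2, 0 and 2, 2 and 5, 1 and 2, 1 and 0, 1 and 3, 0 and 0, and 1 and 0. After median-ratio scaling 0 tetrapyrrole genes were higher by size in leaf. No paired analysis was possible because each group had 1 library. Depth limits genes near 3 counts, where folds have wide intervals.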

Other observations

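Genes sorted by hand as other or unknown in function included some that root libraries held above leaf and some that leaf libraries held above root. Of that group 8 of 22 (36.4%) were lower and 7 (31.8%) higher by size in leaf than in root, under low N and under normal N alike. Over all genes 37.1% were lower and 22.8% higher under low N, and 42.2% and 20.1% under normal N. The 3 carboxyvinyl-carboxyphosphonate phosphorylmutases were lower by size in low-N leaf. Ma03_g18420 was at 10.4 FPKM in low-N leaf, 37.6 in normal-N leaf, 1790 in low-N root and 1263 in normal-N root, the highest root level of the 184 genes. Ma06_g27560 was at 0.26 FPKM in low-N leaf, 16.4 in normal-N leaf, 146 in low-N root and 106 in normal-N root, 62.7-fold lower in leaf with a counting interval of 10.8 to 2515. WEB family proteins were lower for 3 genes by the authors' deposited table for leaf, of which Ma01_g08840 was at 3.81 FPKM in low-N leaf and 17.9 FPKM in normal-N leaf, while Ma10_g24670 was higher, at 16.4 and 5.03 FPKM there.

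BPS1 (Ma01_g02340), among the 10 most abundant of these genes, was at 708 FPKM in low-N leaf, 309 in normal-N leaf, 514 in low-N root and 556 in normal-N root. Low-N leaf stood above both root libraries and normal-N leaf below both. A quinone-oxidoreductase homolog (Ma02_g08040) was at 6.82 FPKM in low-N leaf and 0.48 FPKM in normal-N leaf, beside 38.3 FPKM in low-N root and 25.7 FPKM in normal-N root.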
